A study of Mus musculus with 68 samples.

Results

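Mad2l1 and 6 genes of or named with the spindle assembly checkpoint, Mad1l1, Bub1, Bub1b, Bub3, Ttk and Mad2l2, were followed in the uterus of ovariectomized mice given estradiol (E2) or insulin-like growth factor 1 (IGF1). They are 7 of 30142 genes with a probe set that carries 1 gene symbol, and each has exactly 1 such probe set on the array. The set was selected on measured values, namely the early increase of Mad2l1 and the later increase of its partners after E2 in wild-type uterus. Those E2 comparisons are therefore given here as a description without a test, and tests are reported for the IGF1 arrays, for the knockout uteri and for other genes.

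The spindle assembly checkpoint delays the separation of chromosomes until every kinetochore is attached to microtubules. At an unattached kinetochore the kinase encoded by Ttk (Mps1) recruits Bub1 and Bub3, the Mad1 protein (Mad1l1) holds a copy of Mad2 (Mad2l1), and that copy converts further free Mad2 into the closed form that binds Cdc20. Closed Mad2, BubR1 (Bub1b), Bub3 and Cdc20 form the mitotic checkpoint complex, which inhibits the anaphase-promoting complex. Mad2l2 (REV7) shares the fold of Mad2 but is known mainly as a subunit of DNA polymerase zeta and of shieldin, which act in lesion bypass and in repair of DNA breaks. In the uterus of the ovariectomized mouse, E2 acting through estrogen receptor alpha (ERα, the product of Esr1) drives a wave of epithelial cell division, and IGF1 is a stromal growth factor of that response.

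The data are 68 Affymetrix expression arrays of whole uterus RNA in 25 groups, 5 lines of mice with 5 treatments each. The lines were wild-type C57Bl6 mice from a vendor, Ex3aERKO mice, which are Esr1-null in all tissues, and ERaUtcKO mice, in which floxed Esr1 (Esr1f/f) is removed by PgrCre, a Cre under the progesterone receptor promoter. Each knockout line came with wild-type littermates of its own. All mice were ovariectomized. Vehicle (saline) was sampled at 24 h, E2 (250 ng injected intraperitoneally) at 2 h and 24 h, and IGF1 at 2 h and 24 h. The IGF1 was either injected (50 ug) or delivered from an intraperitoneal pump filled at 0.5 mg/ml, and the route of each mouse is not stated in the sources used here. Since vehicle was taken at 24 h only, the 2 h groups have no vehicle of their own time. Ages are not given in the sources used here. There were 14 arrays of C57Bl6 mice, 14 of Ex3aERKO littermates, 11 of Ex3aERKO, 14 of ERaUtcKO littermates and 15 of ERaUtcKO, with 3 arrays in most groups and 2 in 7 groups from which the submitters left out 1 array as an outlier. Nothing in the labels says whether replicates are separate mice, so p-values measure the spread between these arrays.

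Levels are the deposited log2 signals, and every difference is a log2 difference. The C57Bl6 mice, the Ex3aERKO family and the ERaUtcKO family form 3 mouse sets whose array medians lay at 6.43 to 6.60, 5.82 to 6.15 and 6.26 to 6.62, so levels were compared within a set only. The control probe sets had medians of 4.09 to 4.45, 3.28 to 3.64 and 3.59 to 3.71 per array. Every member lay above the control median of its array on all 68 arrays, by at least 4.12 for Mad2l1 and by at least 1.69 for Ttk, the member closest to it. Esr1, the deleted gene, stood at 9.38 to 10.29 in Ex3aERKO against 11.44 to 12.73 in littermates, and at 10.28 to 11.10 in ERaUtcKO against 11.66 to 12.39, and under vehicle it fell by 2.39 ± 0.19 and by 1.21 ± 0.11 on the log2 scale. Every knockout array thus lay below every littermate array of its family.

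Mad2l1 (probe set TC0600000772.mm.1) lies on chromosome 6 at 66535221 to 66541107 in GRCm38.p6. In C57Bl6 uterus its level was 9.17, 9.11 and 9.08 after vehicle and 14.94, 15.06 and 15.09 after 2 h of E2. In the Ex3aERKO littermates it was 8.26 and 8.25 after vehicle and 15.60, 15.58 and 15.66 after 2 h of E2. In the ERaUtcKO littermates it was 8.85, 9.12 and 9.56 after vehicle and 15.47, 15.70 and 15.81 after 2 h of E2. All 9 early E2 arrays were far above every vehicle array, in each of the 3 sets, and the replicates of a group lay close together.

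By 24 h of E2 the level had come back most of the way. It was 10.98, 11.47 and 11.28 in C57Bl6, 10.95, 11.10 and 11.30 in the Ex3aERKO littermates, and 11.45, 11.20 and 11.58 in the ERaUtcKO littermates. These values lie below all 2 h arrays and above all vehicle arrays of their own set. Over the 3 sets Mad2l1 was higher than vehicle by 6.54 ± 0.16 (standard error of the fit, 9 arrays against 8) at 2 h, a 93.2-fold difference, and by 2.36 ± 0.16 at 24 h, a 5.15-fold difference. The 24 h level was lower than the 2 h level by 18.1-fold (-4.18 ± 0.15 on the log2 scale). Taken set by set, the early difference was 59.9-fold in C57Bl6, 164-fold in the Ex3aERKO littermates and 89.3-fold in the ERaUtcKO littermates. Among all genes the call rate, at an adjusted p under 0.05 in limma, was 40% for E2 at 2 h (17.2% higher than vehicle), 56.2% for E2 at 24 h (24.5% higher) and 51.2% for 24 h against 2 h. Nothing is read from these rates for the members, which were chosen on these comparisons.

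**Figure D1:**
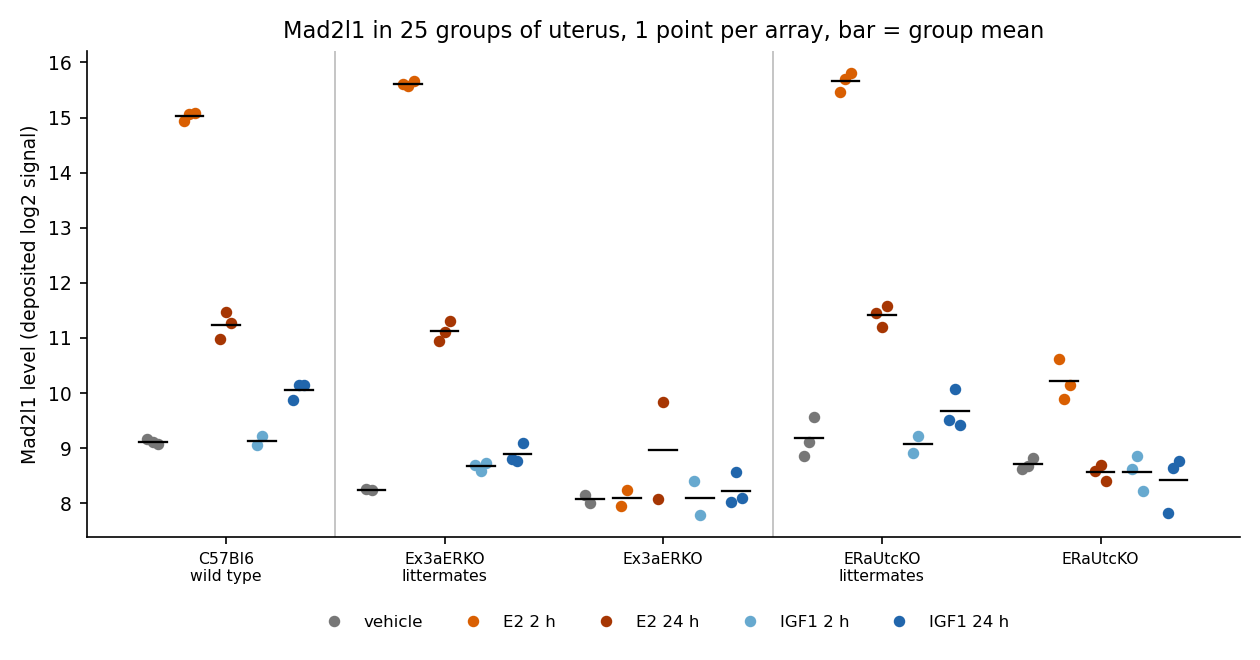
Deposited log2 signal of Mad2l1 on the vertical axis for 25 groups of uterus, in 5 lines along the horizontal axis, with 1 point per array, a bar at each group mean and grey lines between the 3 mouse sets. The E2 2 h points of the 3 wild-type lines sit between 14.94 and 15.81, those of ERaUtcKO between 9.90 and 10.61, and those of Ex3aERKO at 7.95 and 8.24.

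Within the wild-type lines the order of Mad2l1 levels was E2 at 2 h, E2 at 24 h, IGF1 at 24 h, then IGF1 at 2 h and vehicle. In C57Bl6 the IGF1 24 h arrays (9.87, 10.15 and 10.15) stood above vehicle, while the IGF1 2 h arrays (9.06 and 9.22) spanned it. In the Ex3aERKO littermates no neighbouring groups overlapped, with IGF1 at 8.69, 8.58 and 8.74 after 2 h and at 8.81, 8.76 and 9.10 after 24 h. In the ERaUtcKO littermates vehicle overlapped both IGF1 groups, which stood at 8.92 and 9.22 after 2 h and at 9.51, 10.07 and 9.42 after 24 h. The spread of Mad2l1 within groups, pooled over 25 groups, was 0.31 (SD, 43 degrees of freedom).

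The 250 bases before the annotated start of Mad2l1 are shown because Mad2l1 and the late members responded at different times and their promoters can be set side by side. The sequence is RefSeq's, GRCm38.p6, chr6:66534971-66535220, plus strand, and capitals mark the letters GGTCA, the half-site of an estrogen response element.

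Mad2l1 upstream: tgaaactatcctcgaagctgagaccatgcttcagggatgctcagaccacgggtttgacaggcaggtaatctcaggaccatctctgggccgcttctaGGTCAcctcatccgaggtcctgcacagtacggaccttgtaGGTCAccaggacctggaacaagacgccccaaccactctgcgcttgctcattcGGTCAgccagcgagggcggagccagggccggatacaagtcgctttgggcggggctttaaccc

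Counting the base before the start as -1, the 3 half-sites begin at -154, -114 and -62, all on the strand of the gene. The full palindromic element, in which GGTCA is followed after 3 bases by its reverse complement, was not found in the window, which runs from 250 bases before the start to 50 after it. The same holds for CCAAT and for the cell cycle homology letters, TTTGAA in the common form. The variant form of the latter, TTCGAA, was counted with it and was not found either. GGGCGG, the letters of a GC box, occurred at -49, -17 and 19. Each motif was searched on both strands, and a palindromic element would also be counted as GGTCA. Of 32851 such windows in the RefSeq table, 40.5% hold at least 1 GGTCA, 2.35% hold at least 3, and 0.56% hold 3 on 1 strand before the start. The palindrome was in 0.07% of windows, the cell cycle homology letters in 19.2%, CCAAT in 37.4% and GGGCGG in 35.7%. A match describes letters only, and the motifs were picked with the expression results known.

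Of the 5 members that were highest at 24 h of E2, Bub1, Bub1b, Ttk and Bub3 held the cell cycle homology letters near a start and Mad1l1 did not. Capitals mark the cell cycle homology letters, on the gene's strand or, for Ttk and Bub3, as the complement of a match on the other strand, in short windows of GRCm38.p6 that are shown because the Mad2l1 window has no such match.

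Bub1 window: gcgcggggaaTTCGAAtcgccggcgg
Bub1b upstream window: tctccctgggTTCGAAggcttgtctt
Bub1b downstream window: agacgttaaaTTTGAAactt
Ttk window: gcggggaaatTTCAAAcgtgtttccg
Bub3 window: gccgttggcgTTCAAAatcagccaat

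The Bub1 window is chr2:127831830-127831855, minus strand, with its match at 15 to 20 after the start. The Bub1b windows are chr2:118598013-118598038 and chr2:118598241-118598260, plus strand, with matches at -188 to -183 and at 41 to 46. The Ttk window is chr9:83834686-83834711, plus strand, with its match at 8 to 13. The Bub3 window is chr7:131560317-131560342, plus strand, with its match at -43 to -38 of one annotated start and at -167 to -162 of the other. Mad2l2 and Mad1l1, with 2 windows each, had 0 matches to these letters. GGTCA was not particular to Mad2l1 among the members: Ttk also held 3 matches, of which 1 was on the gene's strand, and Mad1l1 and Bub3 held 1 each in one of their windows.

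The checkpoint kinases Bub1 and Ttk were low after vehicle and after 2 h of E2 and high at 24 h. Bub1 (TC0200004568.mm.1, chromosome 2, 127800197 to 127831859) recruits other checkpoint proteins to the kinetochore. In C57Bl6 uterus it was at 6.91, 6.95 and 7.36 after vehicle, 7.03, 6.96 and 6.72 after 2 h of E2, and 9.79, 10.38 and 9.86 after 24 h. The Ex3aERKO littermates had levels of 5.49 and 5.58, then 5.67, 5.64 and 5.83, then 8.80, 9.14 and 8.93. The ERaUtcKO littermates had levels of 5.85, 6.08 and 5.81, then 6.78, 5.84 and 5.95, then 9.34, 9.10 and 8.95. The 24 h arrays were above all others of their set, and 1 of the 9 early arrays, the 6.78 array of the ERaUtcKO littermates, stood apart from its group. That array was also high for Ttk (6.89 against 5.89 and 5.88) and for Mki67, the Ki-67 proliferation antigen (9.52 against 7.63 and 7.88). Bub1 differed from vehicle by 0.08 ± 0.12 at 2 h and by 3.18 ± 0.12 at 24 h, a 9.07-fold difference.

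Ttk (TC0900001101.mm.1, chromosome 9, 83834651 to 83872390), the kinase that starts checkpoint signalling, gave nearly the same picture. Its C57Bl6 levels were 6.79, 6.70 and 7.10 after vehicle, 6.82, 6.69 and 6.47 after 2 h of E2 and 9.13, 9.81 and 9.44 after 24 h. In the Ex3aERKO littermates they were 5.47 and 5.44, then 5.67, 5.26 and 5.45, then 8.20, 8.99 and 8.39. In the ERaUtcKO littermates they were 5.98, 5.96 and 5.92, then 6.89, 5.89 and 5.88, then 9.03, 8.52 and 8.69. Early arrays overlapped vehicle in all 3 sets, and the late arrays were separate in all 3. Ttk differed from vehicle by 0.02 ± 0.13 at 2 h and by 2.82 ± 0.13 at 24 h, a 7.04-fold difference.

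Bub1b (TC0200001741.mm.1, chromosome 2, 118598202 to 118641592) encodes BubR1, a subunit of the mitotic checkpoint complex. In C57Bl6 it was at 8.47, 8.66 and 8.77 after vehicle, at 8.04, 7.91 and 7.75 after 2 h of E2 and at 10.14, 10.82 and 10.29 after 24 h. The Ex3aERKO littermates had levels of 8.27 and 8.14, then between 6.95 and 7.20 in 3 arrays, then 9.63, 10.55 and 9.97. The ERaUtcKO littermates had levels of 7.39, 7.59 and 8.12, then 7.75, 7.46 and 7.28, then 10.25, 9.83 and 9.71. The early arrays were below vehicle without overlap in 2 of 3 sets and overlapped it in the ERaUtcKO littermates. Bub1b was thus lower than vehicle at 2 h (-0.66 ± 0.14) and higher at 24 h (1.99 ± 0.14, 3.97-fold), the only member with opposite signs of over 0.5 at both times.

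Bub3 (TC0700001927.mm.1, chromosome 7, 131560367 to 131571895), which carries Bub1 and BubR1 to kinetochores, was higher than vehicle at both times. It was at 12.70, 12.66 and 12.52 after vehicle in C57Bl6, 13.16, 12.91 and 13.11 after 2 h of E2, and 13.38, 13.54 and 13.55 after 24 h. The Ex3aERKO littermates had levels of 10.37 and 10.29, then 10.79, 10.82 and 11.14, then 11.33, 12.18 and 11.79. The ERaUtcKO littermates had levels of 10.90, 10.75 and 10.98, then 11.37, 11.25 and 11.14, then 12.51, 12.27 and 12.29. These groups rank vehicle, 2 h, 24 h without overlap in all 3 sets. The differences from vehicle were 0.46 ± 0.12 at 2 h and 1.25 ± 0.12 at 24 h, which is 2.38-fold.

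Mad1l1 (TC0500003504.mm.1, chromosome 5, 140008689 to 140321608), the kinetochore receptor of Mad2, changed least. It was at 8.84, 8.85 and 8.89 after vehicle in C57Bl6, 8.89, 8.80 and 8.94 after 2 h of E2 and 9.61, 9.84 and 9.52 after 24 h. In the littermates of both knockouts it ran from 6.44 to 6.99 after vehicle, from 6.58 to 7.15 after 2 h and from 7.06 to 7.58 after 24 h. The early arrays overlapped vehicle in all 3 sets, and the late ones were above vehicle in all 3. The difference from vehicle was 0.08 ± 0.08 at 2 h and 0.65 ± 0.08 at 24 h, which is 1.57-fold. So at 2 h, when Mad2l1 was highest, neither Mad1l1 nor the kinases Bub1 and Ttk stood clear of vehicle in all sets.

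Mad2l2 (TC0400001925.mm.1, chromosome 4, 148130158 to 148145704) did not follow the late pattern. In C57Bl6 it was at 7.42, 7.53 and 7.67 after vehicle, 9.38, 8.46 and 9.23 after 2 h of E2 and 8.24, 8.25 and 8.22 after 24 h. The Ex3aERKO littermates had levels of 6.77 and 6.70, then 8.27, 7.74 and 8.54, then 7.72, 7.81 and 8.05. The ERaUtcKO littermates had levels of 7.15, 7.15 and 7.16, then 8.92, 8.65 and 8.35, then 7.93, 7.99 and 8.09. Every early array was above every vehicle array of its set, and early and late arrays overlapped in the Ex3aERKO littermates. Mad2l2 was higher than vehicle by 1.47 ± 0.10 (2.76-fold) at 2 h and by 0.88 ± 0.10 (1.84-fold) at 24 h. The contrast of an early Mad2l1 with late partners therefore holds in these levels for Bub1, Ttk, Bub1b and Mad1l1, in part for Bub3, and not for Mad2l2.

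**Figure D2:**
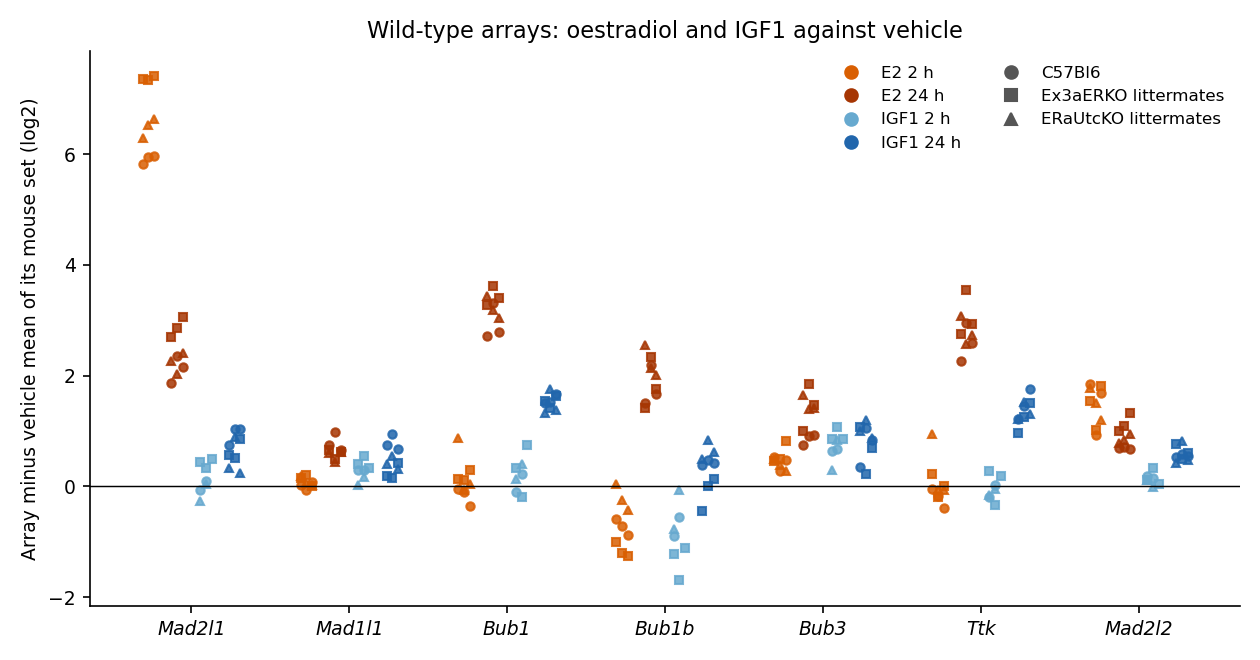
Log2 level of each treated wild-type array minus the vehicle mean of its own mouse set, for the 7 members, with colour for treatment and marker shape for mouse set. The 9 E2 2 h points of Mad2l1 lie between 5.82 and 7.40, those of Mad2l2 between 0.92 and 1.85, and those of Bub1 between -0.35 and 0.87.

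**Figure D3:**
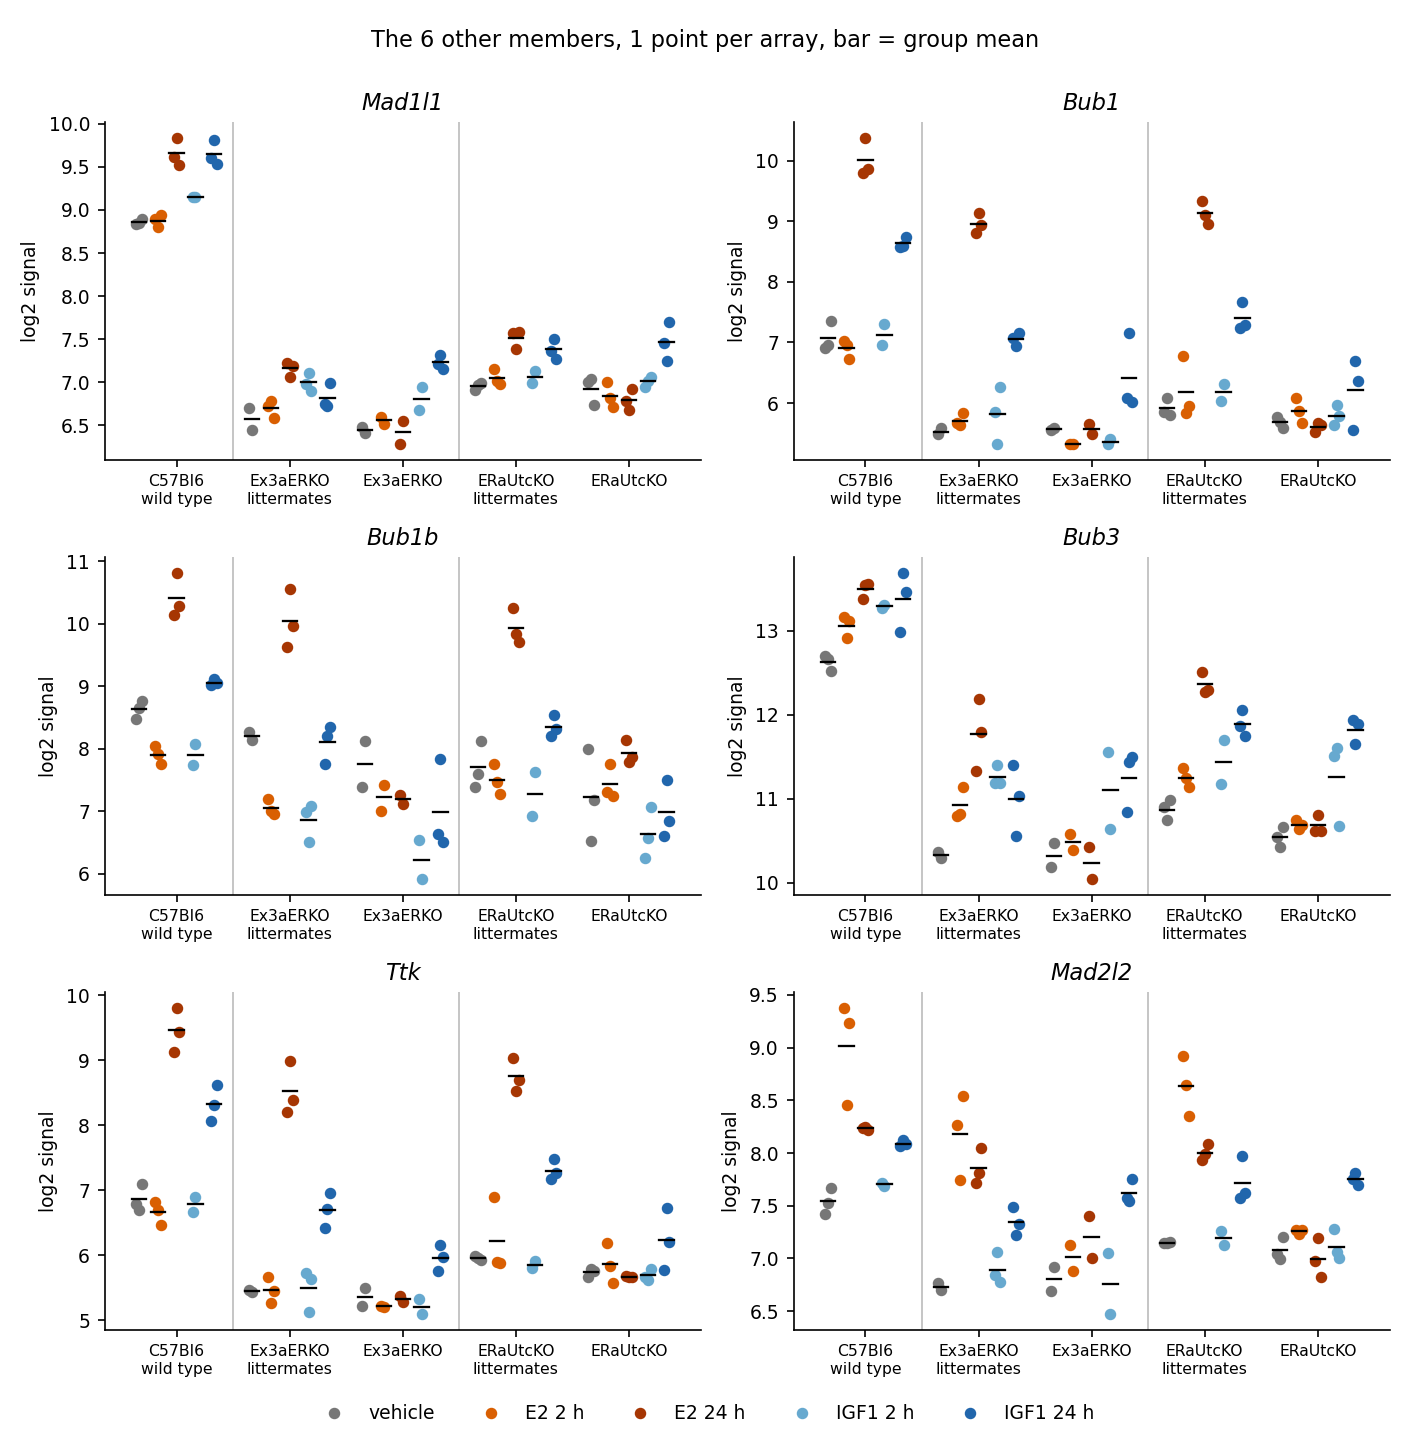
Deposited log2 signal of the 6 other members in 25 groups, 1 panel per gene, with 1 point per array, a bar at each group mean and grey lines between mouse sets. Bub1 and Ttk are highest at E2 24 h in the 3 wild-type lines (8.80 to 10.38 and 8.20 to 9.81), and both knockout lines lack those points.

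At 24 h of E2 all 7 members stood above vehicle without overlap in 3 of 3 sets. The members were chosen on this comparison, in which 24.5% of all genes rose. The share of all genes without overlap was not counted, so nothing is read from the count of members. In whole tissue, fewer cells of a type and less RNA per cell cannot be told apart. The epithelial marker list (11 of 11 genes measured) had a log2 summed level of 13.55 to 14.34 in wild-type vehicle arrays and 16.03 to 16.55 at 24 h of E2, means higher by 1.79, 2.49 and 2.50 in the 3 sets. The smooth muscle sum was higher at 24 h as well, by 0.66, 0.42 and 1.17, and 6 of its 8 genes rose. The part of either list in the late levels of the members was not tested. At 2 h of E2 the epithelial sum ran from 13.43 to 14.35, with differences from vehicle between -0.12 and 0.06. The smooth muscle sum differed by 0.28, -0.36 and 0.28 in the 3 sets, and Mad2l1 by 6.54. The stromal list moved at 2 h: all 7 measured genes fell, with a median of -1.37, and its log2 sum was 17.82 to 18.04 against 18.32 to 18.82 after vehicle. After 2 h of IGF1, when Mad2l1 differed by 0.07, that sum was 17.83 to 18.11. The stromal genes themselves differed between the hormones: after 2 h of IGF1, 2 rose, 2 fell and 3 did not pass, with a median of -0.15. The leukocyte sum differed from vehicle by -0.31 to -0.05 at 2 h of E2. The part of these sums in the early levels was not tested. Mki67 differed from vehicle by 0.11 ± 0.27 at 2 h (adjusted p = 0.791 in limma) and rose by 4.44 ± 0.27 at 24 h (adjusted p = 5.46e-17). In the C57Bl6 vehicle arrays the fat and liver marker sum was 15.68 to 17.57, against 9.95 to 10.62 at 24 h of E2 or IGF1. After 2 h of E2 it was 12.23 to 15.22 in C57Bl6. In the Ex3aERKO littermates it was 10.08 to 10.17 after vehicle and 9.67 to 12.20 after 2 h of E2. In the ERaUtcKO littermates it was 11.10 to 13.49 and 10.20 to 14.10. The part of this list in the members' values was not tested.

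Other genes of the same machinery were counted from lists of checkpoint proteins, of kinetochore and chromosomal passenger proteins, of the anaphase-promoting complex with its partners and targets, and of REV7 partners. After 2 h of E2, 2 of 11 further checkpoint genes rose, 1 fell and 8 did not pass, with a median of 0.02 against -0.05 for all genes, of which 17.2% rose and 40% were called. The share of these genes that rose is near that of all genes. The 2 were Haspin (0.42 ± 0.12, adjusted p = 0.00345 in limma), a histone H3 kinase, and Zw10 (0.24 ± 0.06, adjusted p = 0.000648), a subunit of the complex that brings dynein to kinetochores. Zwilch, of the same complex, fell by 0.19. Of 18 kinetochore and passenger genes 2 rose, Mis12 (0.77) and Zwint (0.54), and 3 fell, among them Cenpa (-0.37), the centromeric histone. Of 21 genes of the anaphase-promoting complex list 5 rose and 5 fell, led by its ubiquitin-conjugating enzyme Ube2s (1.39 ± 0.12, adjusted p = 2.7e-12) and by Pttg1 (-0.44), securin. Of 7 REV7 partners 3 rose, led by Champ1 (0.59) and the polymerase Rev1 (0.47), and 2 fell, Rev3l (-1.52 ± 0.12, adjusted p = 5.08e-14), the catalytic subunit of polymerase zeta, and Shld2 (-0.77). The largest increase in these 4 lists at 2 h was that of Ube2s.

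After 24 h of E2, 10 of 11 further checkpoint genes rose and 0 fell, with a median of 1.96 against -0.07 for all genes, of which 24.5% rose and 56.2% were called. Plk1, a mitotic kinase, rose by 3.39 ± 0.19 and Cdc20, the activator of the anaphase-promoting complex that Mad2 binds, by 2.74 ± 0.14 (adjusted p = 2.44e-18 and 3.8e-19 in limma). Mad2l1bp, whose product helps take Mad2 off Cdc20, was the 1 checkpoint gene that did not pass (0.18, adjusted p = 0.114). Of 18 kinetochore and passenger genes 17 rose, led by the kinesin gene Cenpe (3.55) and the scaffold Knl1 (3.15), and the median was 1.94. Of the anaphase-promoting complex list 14 of 21 rose and 3 fell, with Ube2c (5.03) and the cyclin Ccnb2 (4.68) highest and Pttg1 (-0.73) and Cdc26 (-0.29) lowest. Of the REV7 partners 2 of 7 rose (Pold3 0.64 and Atmin 0.33) and 3 fell, led by Shld2 (-0.54) and Shld1 (-0.24), shares near those of all genes.

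**Figure D4:**
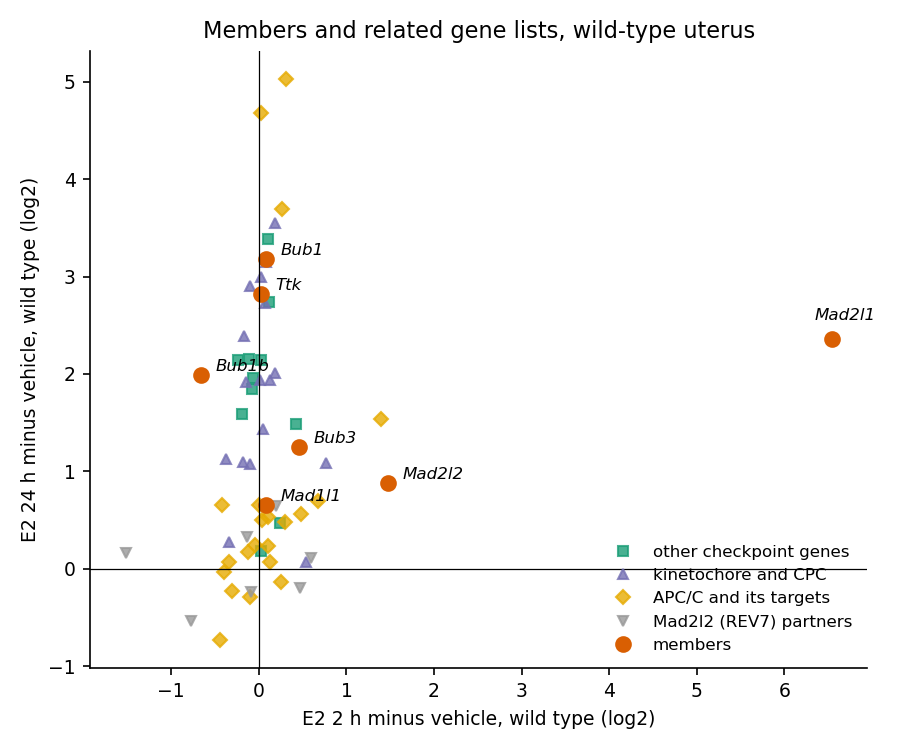
Log2 difference from vehicle in wild-type uterus after 2 h of E2 (horizontal axis) and after 24 h (vertical axis), 1 point per gene for the 7 members and 4 lists of related genes. Mad2l1 lies alone at 6.54 on the horizontal axis, Mad2l2 lies at 1.47, and most checkpoint and kinetochore genes lie near 0 on the horizontal axis and between 1 and 4 on the vertical axis.

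IGF1 did not share the early effect of E2 on Mad2l1. These comparisons use the same vehicle arrays as those of E2. After 2 h of IGF1 the 7 wild-type arrays lay between -0.26 and 0.48 of the vehicle mean of their set, and the fitted difference was 0.07 ± 0.17 (95% interval -0.27 to 0.40, adjusted p = 0.805 in limma). The interval is far below the 6.54 of E2 at the same time. E2 at 2 h exceeded IGF1 at 2 h by 6.47 for Mad2l1 and 1.35 for Mad2l2, while the other 5 members ranged from -0.27 to 0.17. This comparison of E2 with IGF1 called 22% of all genes, and is described only.

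At 2 h of IGF1, 3 of 7 members passed, where 35.9% of all genes were called (16.9% rose). Bub3 rose by 0.73 ± 0.13 (1.66-fold, adjusted p = 1.35e-05 in limma), higher in all 7 arrays, with no overlap with vehicle in 3 of 3 sets. Its arrays stood at 13.27 and 13.31 in C57Bl6, 11.18, 11.40 and 11.19 in the Ex3aERKO littermates, and 11.17 and 11.70 in the ERaUtcKO littermates. Bub1b fell by 0.82 ± 0.15 on the log2 scale (adjusted p = 2.43e-05), and all 7 arrays were below their vehicle mean, from -1.70 to -0.07. Mad1l1 rose by 0.31 ± 0.08 (adjusted p = 0.00266), higher in 7 of 7 arrays. The 2 h E2 differences, which share these vehicle arrays, were 0.46 for Bub3 and -0.66 for Bub1b. Mad2l2 (0.11), Bub1 (0.19) and Ttk (-0.05) did not pass.

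At 24 h of IGF1 all 7 members rose, where 40.9% of all genes were called and 19.3% rose. Bub1 rose by 1.51 ± 0.12 (2.85-fold, adjusted p = 6.87e-13 in limma), with C57Bl6 arrays at 8.58, 8.59 and 8.74, Ex3aERKO littermates at 7.07, 6.94 and 7.16 and ERaUtcKO littermates at 7.24, 7.66 and 7.29. Ttk rose by 1.35 ± 0.13 (2.55-fold, adjusted p = 1.64e-10), with arrays from 0.96 to 1.75 above vehicle. Both genes were above vehicle in 9 of 9 arrays and without overlap in 3 of 3 sets. Bub3 rose by 0.80 ± 0.12 (adjusted p = 1.06e-06), Mad2l2 by 0.57 ± 0.10 (adjusted p = 9.9e-06) and Mad1l1 by 0.49 ± 0.08 (adjusted p = 1.89e-06), each without overlap in 3 sets.

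Mad2l1 rose by 0.65 ± 0.16 at 24 h of IGF1 (1.57-fold, adjusted p = 0.000882 in limma), above vehicle in 9 of 9 arrays and without overlap in 2 of 3 sets. In the ERaUtcKO littermates alone it differed by 0.49 (adjusted p = 0.0677). The weakest call was that of Bub1b, 0.36 ± 0.14 (adjusted p = 0.0379), higher in 8 of 9 arrays. In the Ex3aERKO littermates alone Bub1b was at -0.11. Its call was lost when any of 8 single arrays was left out (differences of 0.28 to 0.36, adjusted p from 0.054 to 0.12): each C57Bl6 IGF1 24 h array, C57Bl6 vehicle replicate 1, IGF1 24 h replicate 3 of the Ex3aERKO littermates, and IGF1 24 h replicate 2 and vehicle replicates 1 and 2 of the ERaUtcKO littermates. Mki67 rose by 2.81 ± 0.27. At 24 h of IGF1 the smooth muscle list moved with the members: 8 of 8 genes rose, and its sum was 19.70 to 20.08 against 18.88 to 19.02 in C57Bl6, 18.92 to 19.28 against 18.49 to 18.57 in the Ex3aERKO littermates and 19.24 to 19.37 against 17.82 to 18.12 in the ERaUtcKO littermates. The stromal sum differed from vehicle by -0.36 to -0.17 and the epithelial sum by 0.06 to 0.56. By gene, 5 of 7 stromal genes rose and 1 fell (median 0.37), and 4 of 11 epithelial genes rose and 1 fell. The stromal gene that fell was Dcn (-0.85), which stood at 18.15 after vehicle and so weighs heavily in the sum. The part of these lists in the members' values was not tested.

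Between 2 h and 24 h of IGF1, 5 members rose, where 35.3% of genes were called and 20.1% rose. These were Ttk (1.40), Bub1 (1.32), Bub1b (1.19), Mad2l1 (0.58, adjusted p = 0.00366 in limma) and Mad2l2 (0.46). Mad1l1 (0.18, adjusted p = 0.0682) and Bub3 (0.07, adjusted p = 0.706) did not pass, and Mad1l1 passed without replicate 1 or 2 of the Ex3aERKO littermates at 24 h or replicate 2 at 2 h (0.22 to 0.23). E2 at 24 h exceeded IGF1 at 24 h by 1.72 for Mad2l1, 1.67 for Bub1, 1.63 for Bub1b and 1.47 for Ttk, and by 0.45 or less for Bub3, Mad2l2 and Mad1l1. That comparison called 28.1% of genes and is described only.

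Of the related lists, the checkpoint and kinetochore genes mostly rose at 24 h of IGF1, where 19.3% of all genes rose. Of 11 checkpoint genes 10 rose and 0 fell (median 0.91 against -0.06 for all genes), led by Plk1 (1.21) and Kntc1 (1.09). Of 18 kinetochore and passenger genes 16 rose, led by Cenpf (1.68) and Cenpe (1.64), and of the anaphase-promoting complex list 12 of 21 rose and 3 fell. Ccnb2 (2.17) and Ube2c (2.12) were highest and Pttg1 (-0.59) lowest there. Of 7 REV7 partners 1 rose, Pold3 (0.40), 1 fell, Shld2 (-0.28), and 5 did not pass. At 2 h of IGF1 the counts were 1 up and 1 down of 11, 1 up and 3 down of 18, 6 up and 2 down of 21, and 2 up and 2 down of 7, where 16.9% of all genes rose and 35.9% were called.

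In Ex3aERKO uterus, which lacks ERα throughout, no member passed after E2 at either time. Mad2l1 stood at 8.15 and 8.01 after vehicle, 7.95 and 8.24 after 2 h of E2, and 8.08 and 9.83 after 24 h. The early arrays spanned the vehicle arrays, and 1 of the 2 late arrays stood apart. The difference was 0.02 ± 0.35 at 2 h (95% interval -0.72 to 0.75, adjusted p = 0.998 in limma) and 0.88 ± 0.35 at 24 h (0.14 to 1.61, adjusted p = 0.264). Without the lower late array (replicate 1) the 24 h difference was 1.75 with an adjusted p of 0.015, and without the higher one (replicate 3) it was 0.00. The fit called 0.149% of genes at 2 h (45 genes, with 2067 at an unadjusted p under 0.05, 0 of them members) and 0% at 24 h (4166 genes at an unadjusted p under 0.05, 1 of them a member). Between 24 h and 2 h it called 1.31% of genes and 0 members, with 5767 genes at an unadjusted p under 0.05, 1 of them a member. That member was Mad2l1 (0.86), which passed without the lower late array (1.73, adjusted p = 0.00686). Bub1 was at 5.65 and 5.49 and Ttk at 5.37 and 5.28 after 24 h of E2, against 5.55 and 5.59, and 5.22 and 5.49, after vehicle.

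In ERaUtcKO uterus Mad2l1 kept a small early response to E2. It was at 8.62, 8.68 and 8.82 after vehicle, at 10.61, 9.90 and 10.14 after 2 h and at 8.59, 8.69 and 8.41 after 24 h. All 3 early arrays were above all others of this line, and the late arrays overlapped vehicle. Mad2l1 rose by 1.51 ± 0.23 at 2 h (2.85-fold, 95% interval 1.02 to 2.00, adjusted p = 0.00136 in limma), where 0.491% of genes were called and 0.398% rose. From 2 h to 24 h it fell by 1.65 ± 0.23 (adjusted p = 0.000476), where 0.869% of genes were called and 0.66% fell. At 24 h the difference from vehicle was -0.14 (95% interval -0.63 to 0.34).

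The other 6 members ranged from -0.08 to 0.21 at 2 h of E2 in ERaUtcKO and none passed. Mad2l2, the other early gene of wild-type uterus, was at 7.04, 6.99 and 7.20 after vehicle and 7.27, 7.23 and 7.27 after 2 h, without overlap, a difference of 0.18 (95% interval -0.07 to 0.43, adjusted p = 0.753 in limma). At 24 h 0% of genes were called (1151 genes at an unadjusted p under 0.05, 1 of them a member). That member was Bub1b, at 8.14, 7.79 and 7.86 against 7.99, 6.53 and 7.18 after vehicle, a difference of 0.70 (95% interval 0.08 to 1.32) with overlap. None of the related genes was called after 2 h of E2 in this line. At an unadjusted p under 0.05 were 1 of 11 checkpoint genes and 0 of the other lists, and 2576 of all genes. Mki67 differed by 0.84 ± 0.48 at 2 h (adjusted p = 0.676), the epithelial sum by 0.05 and the leukocyte sum by 1.08, from 11.29 to 12.15 after vehicle to 12.38 to 13.02. The part of the leukocyte sum in the Mad2l1 result was not tested.

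The E2 responses of knockouts were set against those of their littermates as a description. The 2 h difference of Mad2l1 minus that of littermates was -7.34 ± 0.47 in Ex3aERKO and -4.97 ± 0.33 in ERaUtcKO. For the 24 h difference the values were -1.99 and -2.37 for Mad2l1, -3.42 and -3.28 for Bub1, -3.10 and -2.87 for Ttk, and -2.40 and -1.53 for Bub1b. For the 2 h difference of Mad2l2 they were -1.25 and -1.31. These 4 comparisons called 9.43% and 16.8% of genes for Ex3aERKO at 2 h and 24 h, and 13.8% and 32.9% for ERaUtcKO.

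The 2 knockout lines were also set against each other, a comparison chosen after their values were seen, in which line and mouse set cannot be told apart. For the 2 h response to E2 the lines differed in Mad2l1 by 1.49 ± 0.39 (ERaUtcKO minus Ex3aERKO, 95% interval 0.72 to 2.27), which did not pass over all genes (adjusted p = 0.201 in limma, 0.0564% of genes called). For the change from 2 h to 24 h they differed by -2.51 ± 0.39 (95% interval -3.29 to -1.73, adjusted p = 0.000154, 0.551% of genes called). The second value rests in part on the 9.83 array of Ex3aERKO, and over the fits that left out 1 array it ran from -3.39 to -1.64. No other member passed in either comparison.

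**Figure D5:**
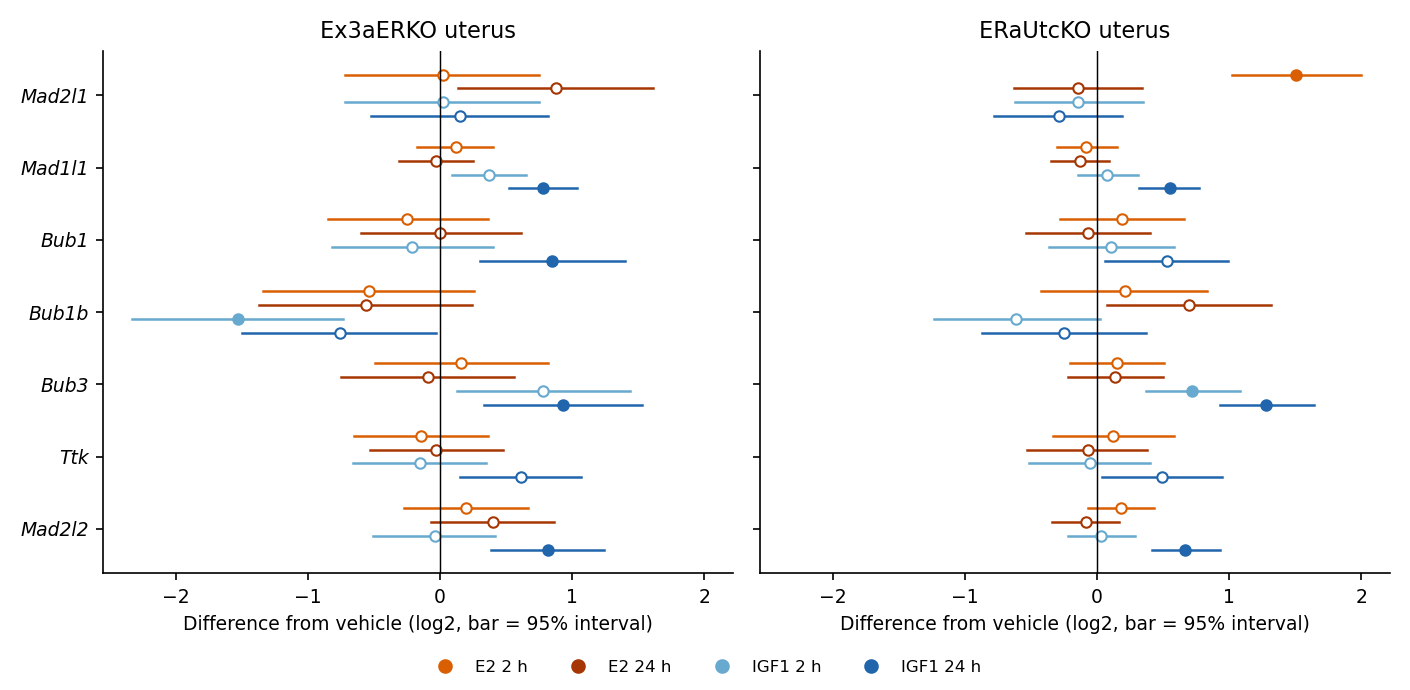
Log2 difference from vehicle of the 7 members in Ex3aERKO (left) and ERaUtcKO (right) uterus for E2 and IGF1 at 2 h and 24 h, with bars for 95% intervals, filled points for differences that passed an adjusted p under 0.05 and open points for the rest. For E2 the only filled point is Mad2l1 at 2 h in ERaUtcKO (1.51), and most filled points are IGF1 at 24 h.

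Under vehicle no member passed between knockouts and their littermates. Mad2l1 differed by -0.17 in Ex3aERKO (95% interval -0.91 to 0.56) and by -0.47 in ERaUtcKO (-0.96 to 0.01). These comparisons called 2.96% and 4.17% of genes, and 0 members were at an unadjusted p under 0.05 in both (4046 and 5472 genes). The intervals allow differences of nearly 1 on the log2 scale, so small shifts were not detectable with these arrays. The littermate vehicle arrays also enter the E2 comparisons on which the members were chosen.

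Some members rose at 24 h of IGF1 in both knockouts. In Ex3aERKO 4 of 7 members rose, where 18.6% of genes were called and 11.7% rose. Mad1l1 rose by 0.78 ± 0.12 (arrays at 7.21, 7.32 and 7.15 against 6.48 and 6.41 after vehicle, adjusted p = 0.000206 in limma), Mad2l2 by 0.82 ± 0.20 (7.57, 7.54 and 7.75 against 6.69 and 6.92, adjusted p = 0.00717) and Bub3 by 0.93 ± 0.28 (10.84, 11.43 and 11.49 against 10.18 and 10.47, adjusted p = 0.0252). These 3 genes had no overlap with vehicle. Bub1 rose by 0.85 ± 0.26 (6.08, 7.16 and 6.01 against 5.55 and 5.59, adjusted p = 0.0273). Its middle array, replicate 2, was also the highest for Mki67 (10.69 against 8.25 and 8.38) and Bub1b (7.84 against 6.63 and 6.51), and without it Bub1 differed by 0.48 (adjusted p = 0.117). With 2 vehicle arrays the calls were fragile: Bub1 was also lost without vehicle replicate 2 (0.83, adjusted p = 0.159) or 3 (0.87, adjusted p = 0.102), Mad2l2 without vehicle replicate 2 (0.70, adjusted p = 0.111), and Bub3 without either vehicle array or IGF1 replicate 2 or 3 (0.79 to 1.07, adjusted p from 0.0546 to 0.222). Ttk (0.61, adjusted p = 0.0592, and 0.71 with 0.0462 without IGF1 replicate 1), Bub1b (-0.76, adjusted p = 0.146) and Mad2l1 (0.15, 95% interval -0.52 to 0.82) did not pass. Without replicate 2, Bub1b was at -1.19 (adjusted p = 0.0106). In this group the leukocyte sum was 11.68 to 15.14 against 10.27 to 10.80 after vehicle. The stromal sum was 16.21 to 16.63 against 17.79 to 18.32, although 4 of the 7 stromal genes rose and 1 fell. The median stromal difference was 1.11 and the lowest was -2.34. The part of these 2 lists in the members' values was not tested.

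In ERaUtcKO 3 of 7 members rose at 24 h of IGF1, where 32.4% of genes were called and 16.9% rose. Bub3 rose by 1.28 ± 0.17 (arrays at 11.93, 11.65 and 11.89 against 10.54, 10.42 and 10.66, adjusted p = 3.3e-06 in limma), Mad2l2 by 0.67 ± 0.12 (7.75, 7.81 and 7.70, adjusted p = 0.000132) and Mad1l1 by 0.55 ± 0.11 (7.46, 7.25 and 7.70, adjusted p = 0.000323). These 3 genes were also called in Ex3aERKO, with other vehicle arrays, and the IGF1 responses of the 2 lines were not tested against each other. Bub1 (5.56, 6.69 and 6.37 against 5.77, 5.69 and 5.59) and Ttk (5.77, 6.73 and 6.20) did not pass, at 0.53 (adjusted p = 0.0782) and 0.49 (adjusted p = 0.0899). The low array in both was replicate 1, which was also lowest for Mki67 (6.88 against 9.18 and 8.31) and Mad2l1 (7.83 against 8.65 and 8.77). Without it Bub1 differed by 0.85 (adjusted p = 0.00306) and Ttk by 0.72 (adjusted p = 0.0175). Mad2l1 was at -0.29 (95% interval -0.78 to 0.19), and was not called. In this group the smooth muscle sum was 18.96 to 19.46 against 17.80 to 18.37 after vehicle, with 8 of 8 genes higher past the threshold. The stromal sum was 17.19 to 17.61 against 18.05 to 18.12, and both sums were without overlap. Of the 7 stromal genes, however, 5 rose and 1 fell, with a median of 1.04. The gene that fell was Dcn (-1.06), which stood at 17.90 after vehicle and so weighs heavily in the sum. The leukocyte sum was 12.02 to 14.46 against 11.29 to 12.15. The part of these lists in the members' values was not tested.

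Early IGF1 calls in the knockouts were of Bub3 and Bub1b. In ERaUtcKO, Bub3 rose by 0.72 ± 0.17 at 2 h (11.51, 11.60 and 10.67, adjusted p = 0.00193 in limma), the 1 member of 7 called where 29.3% of genes were. In Ex3aERKO, Bub1b fell by 1.53 ± 0.38 on the log2 scale (6.54 and 5.91 against 7.38 and 8.12, adjusted p = 0.0082), the 1 member called where 15.7% of genes were. That call was lost without the 8.12 array (adjusted p = 0.114) or the 5.91 array (adjusted p = 0.0859). Bub3 in Ex3aERKO (0.78, adjusted p = 0.099) and Bub1b in ERaUtcKO (-0.61, adjusted p = 0.145) did not pass. Single arrays decided these as well: Bub3 passed without Ex3aERKO IGF1 2 h replicate 2 (1.24, adjusted p = 0.0175), Mad1l1 in Ex3aERKO (0.37) without replicate 1 (0.51, adjusted p = 0.0385), and Bub1b without ERaUtcKO vehicle replicate 2 (-0.96, adjusted p = 0.0184). From 2 h to 24 h of IGF1, 4 members rose in Ex3aERKO (Bub1 1.06, Mad2l2 0.86, Ttk 0.76 and Mad1l1 0.41), where 16% of genes were called and 9.15% rose. In ERaUtcKO 3 members rose (Mad2l2 0.64, Bub3 0.56 and Mad1l1 0.46), where 31.7% were called and 18.6% rose. In Ex3aERKO these calls were lost for Mad2l2 without IGF1 2 h replicate 2 (0.57), for Mad1l1 without 2 h replicate 1 (0.27) or 24 h replicate 2 (0.36), and for Ttk without 2 h replicate 2 (0.64) or 24 h replicate 2 (0.66) or 3 (0.75). In ERaUtcKO the call of Bub3 was lost without 2 h replicate 3 (0.27) or 24 h replicate 1 (0.51), and without the latter Bub1 (0.74) and Ttk (0.78) passed.

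The IGF1 responses of knockouts and littermates were compared directly, and no member passed. The littermate responses use vehicle arrays that also enter the E2 comparisons on which the members were chosen. For Ex3aERKO 0% of genes were called at 2 h (2247 at an unadjusted p under 0.05, 0 of them members). At 24 h 0.0133% were called (2390 at an unadjusted p under 0.05, 1 of them a member). For ERaUtcKO 0.511% were called at 2 h and 0.0498% at 24 h. At 24 h 3457 of the 30142 genes were at an unadjusted p under 0.05, 4 of them members. Those 4 were Bub1 (-0.96, 95% interval -1.62 to -0.29, adjusted p = 0.279 in limma), Bub1b (-0.90, -1.78 to -0.02), Ttk (-0.86, -1.50 to -0.21) and Mad2l1 (-0.78, -1.47 to -0.09), all lower in the knockout. The data thus do not show that the IGF1 response of a member differs between genotypes, and they do not show that it is the same.

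E2 and IGF1 were also compared within each knockout. At 2 h in ERaUtcKO, E2 exceeded IGF1 for Mad2l1 by 1.65 ± 0.23 (adjusted p = 7.7e-06 in limma) and for Bub1b by 0.81 (adjusted p = 0.0492), and was below it for Bub3 (-0.57, adjusted p = 0.0149), where 24.5% of genes were called. The Bub1b call was lost without any of the 3 E2 arrays or IGF1 replicate 1 or 2 (0.62 to 0.91), and that of Bub3 without E2 replicate 2 or IGF1 replicate 1 or 2 (-0.54 to -0.40). At 24 h 5 members passed, where 30.3% of genes were called. Mad1l1 (-0.67), Bub1 (-0.59), Bub3 (-1.14) and Mad2l2 (-0.76) were lower after E2 than after IGF1, and Bub1b was higher (0.95, adjusted p = 0.017). The Bub1 call was lost without any of the 3 E2 arrays or IGF1 replicate 2 or 3 (-0.62 to -0.35), and that of Bub1b without E2 replicate 1 or IGF1 replicate 1 or 3 (0.77 to 0.88). Ttk (-0.56) passed without IGF1 replicate 1 (-0.80). In Ex3aERKO 0 members passed at 2 h, where 12.3% of genes were called (7037 genes at an unadjusted p under 0.05, 1 of them a member). Without IGF1 replicate 2 Bub3 differed by -1.08. At 24 h Mad1l1 (-0.81), Bub1 (-0.84), Bub3 (-1.02) and Ttk (-0.63) were lower after E2, where 19.3% were called and 10.4% were lower. The calls of Bub1 and Ttk were lost without either E2 array or IGF1 replicate 2 (-0.92 to -0.48), that of Ttk also without IGF1 replicate 3 (-0.63), and that of Bub3 without E2 replicate 3 or IGF1 replicate 2 or 3 (-0.93 to -0.84). Mad2l1 (0.73) passed without E2 replicate 1 (1.60), the lower of its 2 arrays.

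The related lists were also counted in the knockouts, where fewer genes of any kind were called after IGF1 than in wild type and fewer arrays were fitted. At 24 h of IGF1 in Ex3aERKO, where 11.7% of all genes rose and 18.6% were called, 4 of 11 checkpoint genes rose, 7 of 18 kinetochore genes rose and 1 fell, 6 of 21 of the anaphase-promoting complex list rose, and 1 of 7 REV7 partners rose. In ERaUtcKO, where 16.9% rose and 32.4% were called, the counts were 5 of 11, 3 of 18 with 1 lower, 9 of 21 with 1 lower, and 2 of 7 with 1 lower. After E2 none of these genes was called in either knockout at 2 h or 24 h. In Ex3aERKO at 24 h of E2, 1 kinetochore gene and 2 genes of the anaphase-promoting complex list were at an unadjusted p under 0.05. So were 4166 of all genes.

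The genes whose pattern was most like that of Mad2l1 were ranked by Pearson's r over the 20 treated groups, each as a difference from vehicle of its own line. Groups of a line share their vehicle arrays, and the value is a description. The 10 highest were Klk1b5 (0.969), Pnp (0.965), Zfp52 (0.965), Pnp2 (0.962), Klk1 (0.955), Klk1b22 (0.954), Ttl (0.954), Scgb1c1 (0.954), Tnfaip8l3 (0.954) and Ctr9 (0.951). The rank correlations (Spearman) of these 10 genes were lower, from 0.623 (Ctr9) to 0.835 (Zfp52). Pearson's r leans most on the wild-type E2 2 h groups, where Mad2l1 differed by 5.91 to 7.36. Klk1, Klk1b5 and Klk1b22 are kallikreins, near-identical copies of one gene family whose probe sets may share signal, and Pnp and Pnp2, purine nucleoside phosphorylases, are another such pair. Their 2 h E2 differences in wild type ran from 1.36 (Ttl) to 8.84 (Klk1), and in ERaUtcKO from -0.12 (Scgb1c1) to 1.56 (Klk1). Among the members Mad2l2 came nearest, with r = 0.86, at the 99.6th percentile of all genes, and the others lay between -0.17 (Mad1l1) and 0.07 (Bub1 and Ttk). Bub1 and Ttk had the most similar patterns of any 2 members (r of 1 when rounded), and Bub1 and Bub1b gave 0.86. These 20 groups include the wild-type E2 groups on which the members were chosen, so the likeness among members in part restates that choice.

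Of the 10 nearest measured protein-coding genes around Mad2l1 on chromosome 6, 5 on each side, 4 rose at 2 h of E2 in wild type, where 17.2% of all genes rose, by 0.37 to 1.59. Of the 5 nearest measured protein-coding genes on the side of higher coordinates, all vomeronasal receptor genes, Vmn1r32 at 11.1 kb was the only one called at 2 h of E2 in wild type (0.37 ± 0.10, adjusted p = 0.0032 in limma), and the other 4, from 70.5 to 175 kb away, ranged from -0.04 to 0.14. On the other side 4930544G11Rik at 581 kb was at 0.07 and Tnip3 at 901 kb at 0.02. Ndnf at 823 kb rose by 1.59 ± 0.09 (adjusted p = 3.16e-18), Qrfprl at 1080 kb by 0.61 and Hpgds at 1390 kb by 0.53. At 24 h Ndnf was at -0.46, Qrfprl at -0.13, Hpgds at -2.37 and Vmn1r32 at -0.14 from vehicle. In ERaUtcKO Vmn1r32 differed by 0.37 and Ndnf by 0.14 at 2 h of E2, and neither passed (adjusted p = 0.467 and 0.881 in limma).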

How the data were processed

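The deposited values are log2 signals per probe set, made by the authors from Affymetrix arrays hybridised with 300 ng of amplified total RNA per the labels' protocols. How the values were normalized is not stated in these sources. Of 72688 probe sets, 30604 carried 1 gene symbol in the platform annotation, and the probe set with the highest mean stood for each of 30142 genes. Symbols were updated through RefSeq where a gene ID or symbol matched. Differences were fitted on all 30142 genes with limma 3.58.1 in R 4.3.3 (lmFit and eBayes, 2-sided, Benjamini-Hochberg): 1 additive model of treatment plus mouse set over the 42 wild-type arrays, and 1 mean per group in each knockout family. A gene was called at an adjusted p under 0.05. The fits were tested on simulated data. Members and lists were chosen with earlier results of these data known; all 7 members are described in every comparison, and from each list up to 2 called genes in each direction are named. Summed marker levels are log2 of the summed linear signals. Alternatives were other scaling, a variance trend, a filter on dim genes, a stricter threshold, a replicate block, a single fit of all groups, each mouse set alone and leaving out each array.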

Additional observations from a re-analysis of the deposited data

Results flagged for a closer look

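The change of Mad2l1 from 2 h to 24 h of E2 differed between the knockout lines by -2.51 (ERaUtcKO minus Ex3aERKO), by a test of the difference itself (adjusted p = 0.000154 in limma). That comparison was chosen after the values were seen, and line and mouse set cannot be told apart in it. Over the fits that left out 1 array the difference ran from -3.39 to -1.64. The following differences between knockouts and littermates were not tested, and are listed because every knockout array moved one way from its vehicle mean and every littermate array the opposite way. They are the 24 h E2 response of Mad2l1 in ERaUtcKO (-2.37), of Bub1 (-3.28) and Ttk (-2.87) in ERaUtcKO and of Bub1b in Ex3aERKO (-2.40), and the 2 h E2 response of Bub1 in Ex3aERKO (-0.43). In all 5 the knockout arrays lay below their vehicle mean and the littermate arrays above theirs. In ERaUtcKO these shifts were small, from -0.3 to -0.01 for Mad2l1, -0.15 to -0.01 for Bub1 and -0.08 to -0.06 for Ttk. For these genes the ERaUtcKO arrays overlapped their vehicle arrays. For the 24 h items the littermate side was largely set by the choice of members on E2 responses of wild-type arrays. How many of all genes meet the same rule was not counted.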

How the results depend on the processing

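Vehicle was sampled at 24 h only, 7 groups hold 2 arrays, and the arrays' number limits the precision: the 95% interval of Mad2l1 at 2 h of E2 in Ex3aERKO was -0.72 to 0.75. Of the values of the members other than Mad2l1, 1462 stayed the same under the alternatives. Of the rest, 31 lost a call, 21 gained one, 34 moved by over 1 SD and 1 reversed. For a tested comparison, the same meant called in the same direction in both settings, or called in neither. For a comparison that was only described, it meant a value within 1 SD. A change of sign between values that passed in neither setting was not counted as reversed. The reversed value was Bub1b at 24 h of IGF1 in the Ex3aERKO littermates alone, -0.11. The cause of these changes was not tested.

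With single mouse sets, the wild-type Mad2l1 difference was 5.91 (C57Bl6) and 7.36 (Ex3aERKO littermates) at 2 h of E2, 2.86 at 24 h (Ex3aERKO littermates), -3.79 and -4.50 from 2 h to 24 h, 5.89 and 6.94 for E2 against IGF1 at 2 h, and 1.19 and 2.22 at 24 h. For IGF1 it was 0.42 at 2 h in the Ex3aERKO littermates (now called), 0.49 at 24 h in the ERaUtcKO littermates, and 0.22 and 0.59 from 2 h to 24 h in the Ex3aERKO and ERaUtcKO littermates (calls lost, with fewer arrays). Members called became 1 at 2 h of IGF1 in the ERaUtcKO littermates alone, and 3 at 24 h and 3 from 2 h to 24 h in the Ex3aERKO littermates alone.

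In Ex3aERKO, members called at 2 h of IGF1 became 2 with arrays centred and 3 in the single fit of 25 groups; E2 against IGF1 at 2 h became 1 in the single fit, where Mad2l1 at 24 h (0.73) was called. At an adjusted p under 0.01 the counts became 2 at 24 h of IGF1, 2 from 2 h to 24 h and 1 for E2 against IGF1 at 24 h. In ERaUtcKO, 24 h of IGF1 gave 5 with arrays centred and 5 with quantile normalization, and the stricter threshold gave 1 and 3 for E2 against IGF1 at 2 h and 24 h.

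Leaving out 1 array at a time moved Mad2l1 in Ex3aERKO from 0.00 to 1.75 at 24 h of E2, from -0.02 to 1.73 from 2 h to 24 h, from -0.15 to 1.60 for E2 against IGF1 at 24 h, and its 24 h response minus littermates from -2.86 to -1.11. Members called in Ex3aERKO then ran from 0 to 1 at 24 h of E2, from 2 h to 24 h of E2 and for E2 against IGF1 at 2 h, from 0 to 2 at 2 h of IGF1, from 1 to 5 at 24 h of IGF1, from 2 to 4 between those times and from 1 to 4 for E2 against IGF1 at 24 h. In ERaUtcKO they ran from 1 to 2 and from 3 to 5 for IGF1 at 2 h and 24 h, and from 1 to 3 and from 3 to 5 for E2 against IGF1. Where this left 1 array in a group, that array was assumed to vary like the other groups.

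At the median, same-numbered replicates did not deviate together (correlation -0.14 over 26 pairs in C57Bl6, 0 over 92 and 0 over 126 pairs in the knockout families). The number was therefore not treated as a pairing in the main fits, although a weak pairing would not show in these medians. With the replicate block Mad2l1 was 1.51 higher at 2 h of E2 in ERaUtcKO, and 3 of 279 values lost their call: Ttk for E2 against IGF1 at 24 h in Ex3aERKO (-0.64), and Bub1b at 2 h (0.81) and Bub1 at 24 h (-0.59) for the same comparison in ERaUtcKO. The filter on dim genes removed some members, and a choice among probe sets could not be run because each member has 1.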
